A study of Sus scrofa with 9 samples.

Results

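The respiratory chain was described here through its protein genes, whether they are encoded in the nucleus or in mitochondrial DNA. Members were taken by symbol: the subunits of complex I (NDUFA, NDUFB, NDUFC, NDUFS and NDUFV), complex II (SDHA to SDHD), complex III (UQCR and CYC1), complex IV (COX4 to COX8), complex V (ATP5) and cytochrome c (CYCS), plus the 13 protein genes of mitochondrial DNA. Assembly factors and the inhibitor ATP5IF1 were kept out. NDUFA4 and its paralog NDUFA4L2 were counted under complex I by symbol, though NDUFA4 is known in mammals as a subunit of complex IV. The rule gave 86 symbols, and 79 of them had values, among 30477 gene IDs in all. The set with values held 66 nuclear genes (31 of complex I, 4 of complex II, 7 of complex III, 13 of complex IV, 10 of complex V and CYCS) and 13 mitochondrial genes (7 of complex I, 1 of complex III, 3 of complex IV and 2 of complex V). The other 7 symbols (ATP5MC2, ATP5MG, COX6C, NDUFA1, NDUFA13, NDUFC1 and UQCRB) were not analysed here.

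The respiratory chain passes electrons from NADH and succinate through complexes I and II to ubiquinone, then through complex III, cytochrome c and complex IV to oxygen. Complexes I, III and IV pump protons across the inner mitochondrial membrane, and complex V uses their return to make ATP. All of these except complex II and cytochrome c combine nuclear subunits with subunits made inside the mitochondrion, so the genes of both genomes are needed to build them.

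The samples were porcine embryonic fibroblasts (PEF), connective tissue cells grown from pig embryos that were thawed and cultured before treatment. The control group was untreated and taken at 0 h, and the other groups were cells with insulin for 48 h and for 72 h. Each group had 3 libraries. The series text calls them biological replicates and does not say whether they came from separate embryos, so p-values may measure spread between cultures only. No untreated culture of 48 h or 72 h was analysed here, so insulin and time in culture cannot be told apart in any comparison, and neither the insulin dose nor the medium is given in these sources.

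RNA was measured by sequencing after removal of ribosomal RNA, and the values are FPKM, fragments scaled to gene length and to the fragments of the library. All 79 members passed the filter on low values (3 or more libraries at an FPKM of 1 or above), which 11063 genes passed. COX7A1 passed only through the libraries with insulin, so its calls, which the counts below include, are no support for a difference. FPKM values summed to 487858 to 497665 in the 0 h libraries, 524992 to 563656 at 48 h and 505022 to 525471 at 72 h, so a change can depend on how the libraries are scaled. Read depth is unknown. From the spacing of low values, 48 h replicate 3 was 1.31 times as deep as 0 h replicate 1, and the others had a ratio of 1.0. The fibroblast markers COL1A1, COL1A2, COL3A1, VIM, PDGFRB, LUM and DCN summed to 19632 to 20514 FPKM at 0 h, 17762 to 18632 at 48 h and 19718 to 20276 at 72 h. At 48 h COL1A1, COL1A2 and COL3A1 fell (-0.21, -0.41 and -0.33 on the log2 scale) while VIM, LUM and DCN rose (0.25, 1.34 and 0.80). At 72 h COL1A2 fell (-0.20) and VIM, PDGFRB, LUM and DCN rose (0.21, 0.32, 1.84 and 1.41). ADIPOQ of fat, PTPRC and HBB of blood and CDH5 of endothelium were listed at 0 in every library. PLIN1 and FABP4 of fat, KDR of endothelium and EPCAM and CDH1 of epithelium had means below 1 FPKM at each time. CD68 of blood had means of 0.147, 0.33 and 0.583 FPKM. PECAM1 of endothelium had means of 0.787, 0.83 and 1.09 FPKM, and its changes of 0.04 and 0.23 did not pass. The epithelial keratin KRT8 went from a mean of 5.98 to 11.8 and 8.95 FPKM. The part of these markers in the results was not tested. In bulk RNA, a change in the number of cells of a type and a change in RNA per cell cannot be told apart.

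Mitochondrial genes were far more abundant than nuclear ones before insulin. At 0 h the 13 mitochondrial genes had a median of 2002 FPKM and a range from 21.1 to 5463. The 66 nuclear members had a median of 55.0 FPKM and a range from 0.567 to 546, while the median of all tested genes was 10.7. COX1, the catalytic subunit of complex IV, was the highest member at 5463 FPKM and ranked 6 among the 11063 tested genes. COX4I1, the common form of the largest nuclear subunit of complex IV, was the highest nuclear member at 546 FPKM. By complex, the nuclear medians were 102 FPKM for complex V, 71.7 for complex III, 58.6 for complex IV, 53.9 for complex I and 19.0 for complex II, the smallest complex.

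At 48 h, most nuclear members were higher than at 0 h and none was called lower. Of the 66, 51 rose (77.3%), against 27.6% of all tested genes called higher and 22.4% called lower. Their median log2 change of FPKM + 1 was 0.29, against 0.02 for all tested genes. A gene was called at an adjusted p below 0.05 by limma, with Benjamini-Hochberg adjustment over the 11063 genes, and all changes below are on this scale with the standard error (SE) of that fit. The lowest 48 h library was above the highest 0 h library in 58 nuclear members, against 32.4% of all tested genes, and the groups lay apart in the other direction in none, against 27.6%.

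The sum over the nuclear members was 4971, 4769 and 4950 FPKM in the 0 h libraries. It was 6588, 6187 and 5538 FPKM in the 48 h libraries and 5180, 5550 and 4844 FPKM in the 72 h libraries. All 48 h libraries lay above all 0 h libraries, replicate 3 nearest to them. Replicates 1 and 2 of 72 h also lay above all 0 h libraries, and replicate 3 lay within their range. As a share of the library's FPKM sum, the nuclear members held 0.977% to 0.999% at 0 h, 1.05% to 1.17% at 48 h and 0.959% to 1.06% at 72 h. Such a share is a scaling of its own, because it depends on all other genes in the sum. By this share the 48 h libraries lay apart from the 0 h libraries, and the 72 h libraries overlapped with both.

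**Figure D1:**
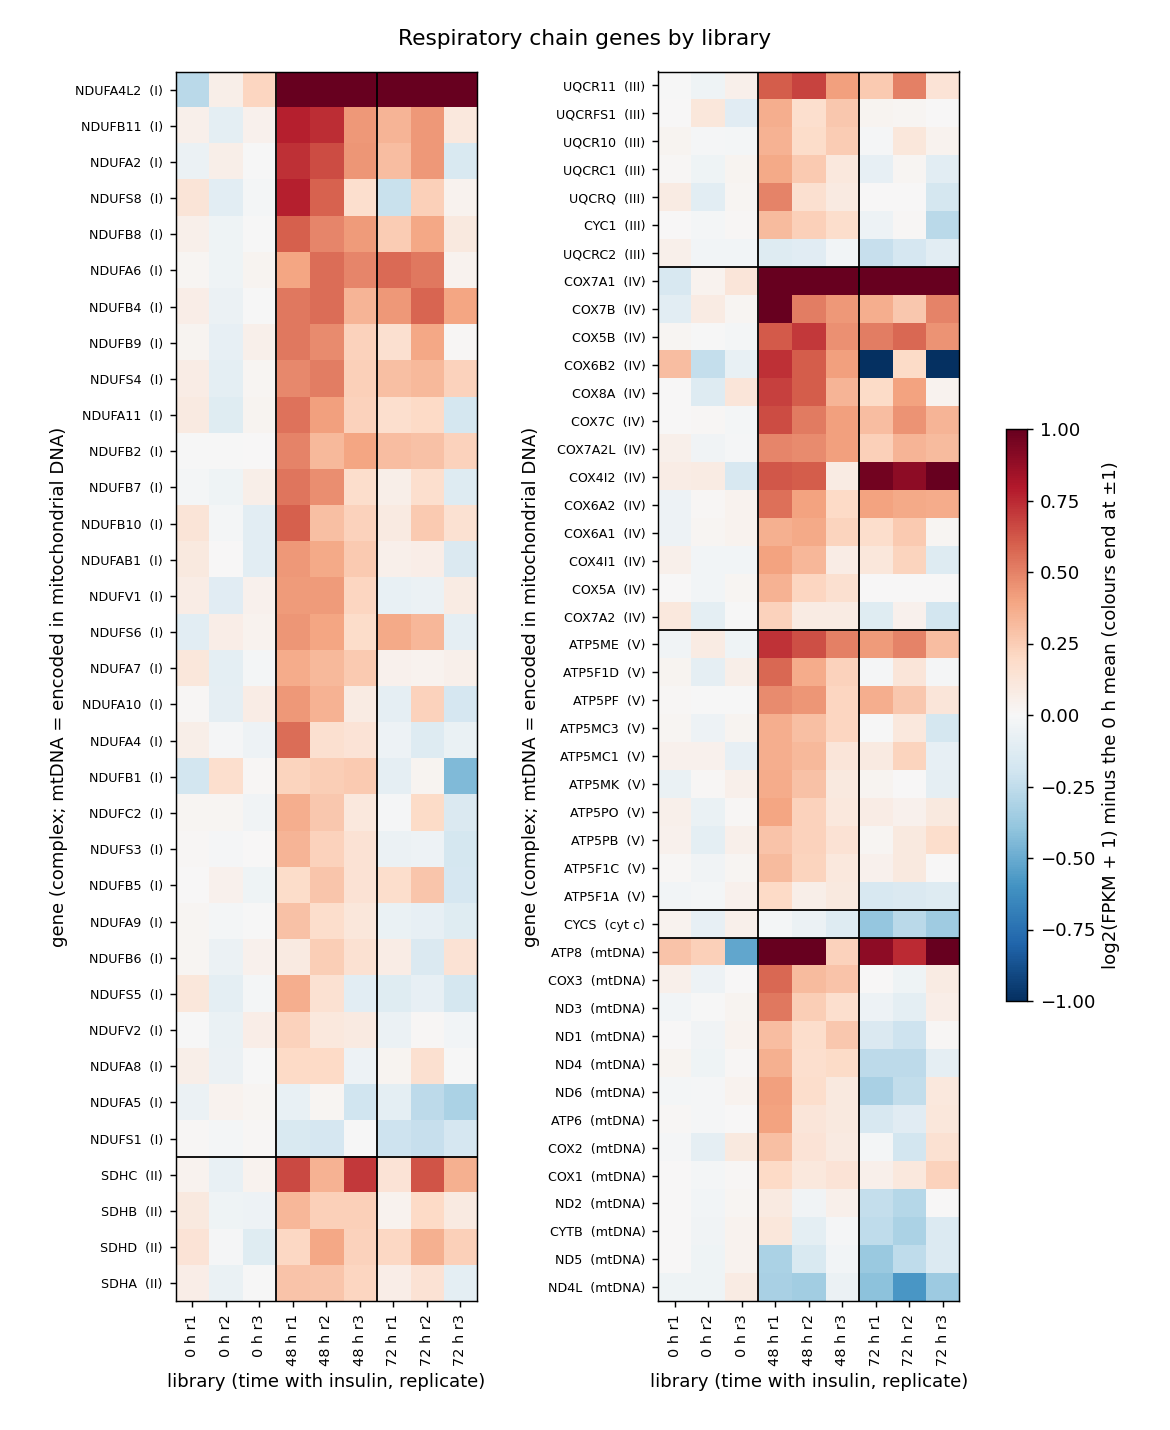
Each row is a respiratory chain gene, with its complex or mtDNA in brackets, and each column a library, and the colour is log2(FPKM + 1) minus the gene's mean at 0 h, with blue for lower and red for higher. Most nuclear rows are red at 48 h and paler at 72 h, NDUFA4L2, COX7A1 and COX4I2 are dark red at 72 h, and ND4L and ND5 are blue at both times.

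The size of this rise depended on scaling. With every library set to the same FPKM sum, the median change of all tested genes moved from 0.02 to -0.10, and 30 nuclear members (45.5%) were called higher, against 17.7% of all genes, with a median of 0.16 against -0.10. In that setting 4 members (6.06%), UQCRC2, NDUFS1, CYCS and NDUFA5, were called lower, against 33.4% of all tested genes. Of the 51 calls, 27 held under each of 4 other scalings and 33 held in each of the 9 fits that left out 1 library.

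In complex I, 22 of 31 nuclear subunits rose at 48 h (71.0%, against 27.6% of all tested genes), with a median of 0.34. The complex has a catalytic core, which carries the flavin and the iron-sulfur clusters, and many accessory subunits. Of the 6 nuclear core subunits with values, 4 rose, with a median of 0.25 over the 6. Of the 25 accessory subunits, which by symbol include NDUFA4 and NDUFA4L2, 18 rose.

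NDUFB4, an accessory subunit of the membrane arm (chr13:139724145-139730492, Sscrofa11.1), had 155, 142 and 148 FPKM at 0 h. It had 214, 218 and 188 FPKM at 48 h and 200, 223 and 195 FPKM at 72 h. Both groups with insulin lay above all 0 h libraries, by 0.47 ± 0.07 at each time (limma adjusted p = 0.000505 and 0.000438). NDUFB11, another subunit of the membrane arm, had 14.8, 13.3 and 14.7 FPKM at 0 h and 25.2, 24.45 and 19.6 at 48 h, a rise of 0.65 ± 0.11 (limma adjusted p = 0.000724). At 72 h it had 18.3, 19.6 and 15.4 FPKM, above all controls, and the rise of 0.29 ± 0.11 (limma adjusted p = 0.0449) was lost without 72 h replicate 2 (0.22) or any one of 5 other libraries.

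NDUFS8, a core subunit with iron-sulfur clusters, had 70.9, 60.1 and 63.9 FPKM at 0 h and 112, 98.1 and 72.9 at 48 h. Replicate 3 of 48 h was just above the highest control library. Its rise of 0.51 ± 0.15 (limma adjusted p = 0.0163) was lost without 48 h replicate 1 (0.38), 48 h replicate 2 (0.47) or 0 h replicate 2 (0.46). NDUFS4, an accessory subunit needed for a stable complex, rose by 0.41 ± 0.08 at 48 h and by 0.29 ± 0.08 at 72 h, the latter lost without 0 h replicate 2 (0.24). NDUFAB1, the mitochondrial acyl carrier protein, rose by 0.36 ± 0.08 at 48 h and had a change of -0.01 ± 0.08 at 72 h.

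All 4 subunits of complex II, which is also the succinate dehydrogenase of the citric acid cycle, rose at 48 h. Of all tested genes, 27.6% were called higher. SDHC, a membrane anchor, had 11.5, 10.6 and 11.5 FPKM at 0 h, 18.3, 14.5 and 18.9 at 48 h and 12.4, 17.9 and 14.65 at 72 h. No library with insulin overlapped with the 0 h libraries. The changes were 0.57 ± 0.12 and 0.38 ± 0.12 (limma adjusted p = 0.00368 and 0.0304), and that at 72 h was lost without 72 h replicate 2 (0.25), 72 h replicate 3 (0.38) or any one 0 h library (0.34 to 0.39). SDHD, the other anchor, rose by 0.27 ± 0.08 at both times, calls that were lost without 0 h replicate 2 or 3 and, at each time, without replicate 2 of that time (0.21 to 0.27). SDHA, which carries the flavin, and SDHB, which carries the iron-sulfur clusters, rose by 0.26 ± 0.07 and 0.27 ± 0.06 at 48 h and had changes of 0.04 and 0.11 at 72 h that did not pass, and the call of SDHA was lost without 0 h replicate 2 (0.23). With equal FPKM sums, SDHC alone of the 4 was called at 48 h and none at 72 h, against 17.7% and 19.5% of all tested genes called higher.

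In complex III, 5 of 7 nuclear subunits rose at 48 h (71.4%, against 27.6% of all tested genes), with a median of 0.25. With equal FPKM sums 1 was called higher and 1 lower, with a median of 0.11, and with quantile normalization 2 and 1, with a median of 0.10. Of all tested genes, 17.7% were called higher and 33.4% lower with equal FPKM sums, and 24.1% and 24.8% with quantile normalization. The rise of complex III thus did not stand out from other genes by count with equal FPKM sums. UQCR11, a small subunit, had 4.27, 4.13 and 4.49 FPKM at 0 h and 7.06, 7.46 and 6.05 at 48 h, with no overlap, a rise of 0.57 ± 0.10 (limma adjusted p = 0.00132). CYC1, the heme protein cytochrome c1, UQCRFS1, the Rieske iron-sulfur protein, UQCRC1 and UQCR10 rose by 0.24 to 0.27. The calls of CYC1 and UQCRC1 were lost without 0 h replicate 2, that of CYC1 also without 48 h replicate 1 and that of UQCRFS1 without 0 h replicate 3 (0.21 to 0.24). UQCRQ had a change of 0.25 ± 0.10 that did not pass (limma adjusted p = 0.0671). UQCRC2, a core protein that does not carry a redox group, was at 42.6, 40.35 and 40.2 FPKM at 0 h and at 37.5, 37.8 and 40.3 at 48 h, groups that overlapped.

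Complex IV had the highest median change, 0.46 over 13 nuclear subunits, of which 11 rose (84.6%, against 27.6% of all tested genes). COX5B, a zinc-binding subunit (chr3:56630297-56632107), had 63.9, 63.15 and 62.4 FPKM at 0 h. It had 97.2, 103 and 86.9 FPKM at 48 h and 90.3, 94.6 and 86.65 FPKM at 72 h. The control libraries lay within 2 FPKM of each other, and every library with insulin was above them, by 0.59 ± 0.07 at 48 h and 0.51 ± 0.07 at 72 h (limma adjusted p = 7.39e-05 and 0.000132). COX7C, a small membrane subunit, had 21.4, 21.6 and 21.1 FPKM at 0 h, 34.1, 31.0 and 28.6 at 48 h and 26.7, 29.5 and 27.3 at 72 h. Its groups did not overlap with 0 h, and it rose by 0.53 ± 0.07 and 0.37 ± 0.07. COX7A2L, which ties complexes III and IV together in supercomplexes, rose by 0.46 ± 0.05 and 0.30 ± 0.05. The calls of COX5B, COX7C and COX7A2L at both times held in every setting run.

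COX7B, another small subunit, had 54.2, 62.1 and 59.4 FPKM at 0 h and 130, 83.9 and 79.2 at 48 h. Replicate 1 of 48 h was far above the other libraries of its group, and the rise was 0.69 ± 0.15 (limma adjusted p = 0.00392). At 72 h its values of 75.6, 70.5 and 82.8 were above all control libraries, but the change of 0.38 ± 0.15 did not pass (limma adjusted p = 0.069). COX8A rose by 0.54 ± 0.11 at 48 h and had a change of 0.21 ± 0.11 at 72 h. COX4I1 rose by 0.27 ± 0.10 at 48 h (limma adjusted p = 0.0472), a call lost in 6 of the 9 fits that left out a library, where the change was 0.20 to 0.29.

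In complex V, 9 of 10 nuclear subunits rose at 48 h (against 27.6% of all tested genes), with a median of 0.26. With equal FPKM sums 3 were called higher, with a median of 0.13, and with quantile normalization 4, with a median of 0.09. Of all tested genes, 17.7% and 24.1% were called higher in these settings. ATP5ME, a membrane subunit at the interface of ATP synthase dimers, had 7.83, 8.56 and 7.79 FPKM at 0 h, 13.9, 13.2 and 11.8 at 48 h and 11.2, 11.8 and 10.2 at 72 h. The groups with insulin did not overlap with 0 h, and the rises were 0.62 ± 0.08 and 0.41 ± 0.08 (limma adjusted p = 0.000134 and 0.00162). ATP5PF, coupling factor 6 of the peripheral stalk, rose by 0.38 ± 0.09 and 0.25 ± 0.09, the latter lost in 5 of the 9 fits that left out a library (0.19 to 0.26). ATP5F1D, a subunit of the central stalk, rose by 0.39 ± 0.08 at 48 h and had a change of 0.03 ± 0.08 at 72 h. ATP5MC1 and ATP5MC3, which encode the same mature subunit of the proton-carrying ring, rose by 0.27 ± 0.09 and 0.29 ± 0.08 at 48 h and had changes of 0.08 and -0.03 at 72 h. The call of ATP5MC1 was lost without 0 h replicate 3 (0.23), 48 h replicate 1 (0.22) or 48 h replicate 2 (0.24). ATP5F1A, the alpha subunit of the head that makes ATP, had a change of 0.12 ± 0.05 at 48 h that did not pass.

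**Figure D2:**
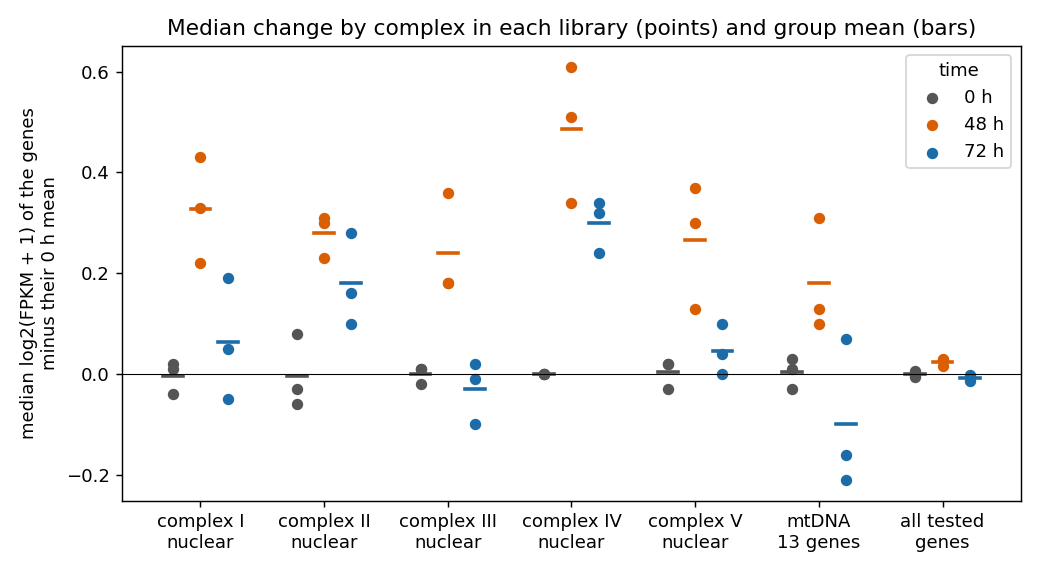
The vertical axis is the median log2(FPKM + 1) of the genes of a complex minus their mean at 0 h, each point is a library and each bar the mean of 3 libraries, coloured by time. The 48 h points of every nuclear complex lie above the 0 h points of all complexes, those of complex IV between 0.34 and 0.61. The medians of all tested genes stay near 0.

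At 72 h the count of nuclear members above control was close to that of other genes. Of the 66, 18 rose (27.3%) and 5 fell (7.58%), against 23.0% and 22.5% of all tested genes, and the median change was 0.05 against -0.008. The 18 were NDUFA4L2, NDUFA6, NDUFB2, NDUFB4, NDUFB8, NDUFB11 and NDUFS4 of complex I, SDHC and SDHD of complex II, UQCR11 of complex III, COX4I2, COX5B, COX6A2, COX7A1, COX7A2L and COX7C of complex IV, and ATP5ME and ATP5PF of complex V. Their changes were 0.24 to 1.88 at 72 h and 0.27 to 1.33 at 48 h, in comparisons that share the 0 h libraries. None of the 6 nuclear core subunits of complex I rose at 72 h, and 7 of the 25 accessory subunits did. Groups that did not overlap were higher at 72 h in 19 members and lower in 8, against 28.1% and 30.4% of all tested genes. Complex IV kept the highest median, 0.30, while the medians of complexes I, III and V were 0.03, -0.06 and 0.06. Fewer members rose without 0 h replicate 2 (10), 0 h replicate 3 (11) or 72 h replicate 2 (11), against 19.5%, 19.1% and 20.1% of all tested genes.

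The 5 nuclear members that fell at 72 h were CYCS, NDUFA5, NDUFS1, UQCRC2 and ATP5F1A, with changes of -0.34 to -0.14 at 72 h beside -0.11 to 0.12 at 48 h. CYCS, the mobile carrier between complexes III and IV (chr18:47169921-47172212), had 48.2, 44.5 and 48.8 FPKM at 0 h, 46.5, 45.25 and 43.0 at 48 h and 35.8, 39.0 and 36.6 at 72 h. The 48 h libraries overlapped with 0 h, and the 72 h libraries lay below both. It fell by 0.34 ± 0.06 on the log2 scale at 72 h (limma adjusted p = 0.00115), and this call held in every setting run.

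NDUFS1, the largest core subunit of complex I, had 32.4, 31.8 and 32.45 FPKM at 0 h and 27.7, 27.3 and 28.6 at 72 h, without overlap, a change of -0.20 ± 0.06 (limma adjusted p = 0.0178). NDUFA5, an accessory subunit of the arm that faces the matrix, went from 136, 145 and 144 to 132, 118 and 113 FPKM, also without overlap, a change of -0.23 ± 0.07 (limma adjusted p = 0.0275). UQCRC2 and ATP5F1A had changes of -0.17 ± 0.06 and -0.14 ± 0.05 (limma adjusted p = 0.038 and 0.049). The calls of these 4 genes were each lost in 4 or more of the 9 fits that left out a library. The 9 fits called 1 to 5 nuclear members lower, fewest without 0 h replicate 3, against 17.9% to 24.5% of all tested genes. With equal FPKM sums 14 nuclear members were higher (21.2%) and 8 lower (12.1%) at 72 h, against 19.5% and 26.5% of all tested genes.

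**Figure D3:**
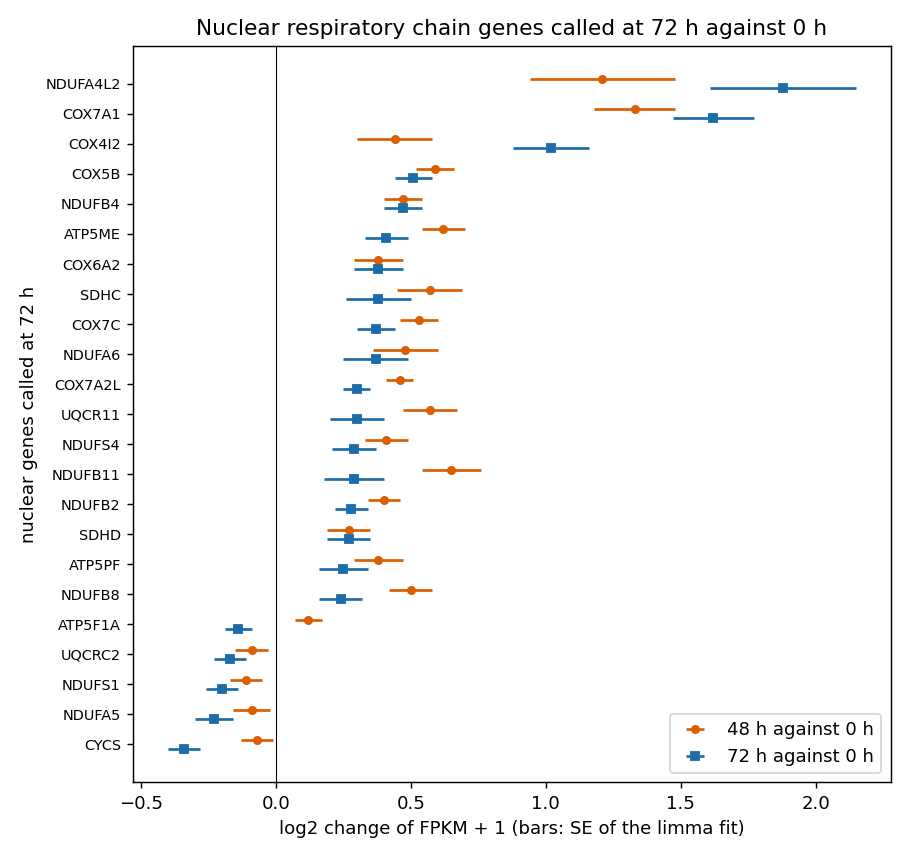
Each row is a nuclear member called at 72 h, the horizontal axis is the log2 change of FPKM + 1 against 0 h at 48 h (circles) and 72 h (squares), and the bars are SE of the limma fit. The 18 genes that rose lie right of 0 at both times, and the 5 that fell, from ATP5F1A at -0.14 to CYCS at -0.34, lie left of 0 at 72 h.

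Between 48 h and 72 h, 27 nuclear members fell (40.9%) and COX4I2 rose, against 16.3% and 9.17% of all tested genes called lower and higher, with a median of -0.22 against -0.033. This comparison shares the 48 h libraries with that of 48 h against 0 h, so their deviations enter both the rises and the falls. The falls took in 14 members counted under complex I (NDUFA4 among them), 4 of complex III, 4 of complex V, 3 of complex IV, SDHA and CYCS. Among the core subunits of complex I, NDUFV1 fell by 0.37 and NDUFS3 by 0.34 on the log2 scale, and NDUFS8 by 0.49, the last a call lost in 5 of the 9 fits that left out a library. The count of falls was 12 to 42 when 1 library was left out. It was 42 without 48 h replicate 3 (63.6%, against 19.8% of all tested genes) and 12 without 72 h replicate 3 (18.2%, against 11.2%). With equal FPKM sums it was 17 (25.8%, against 10.2%).

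Several complex IV subunits have a common form and a form restricted to certain tissues or conditions. COX7A1, the heart and skeletal muscle form of subunit 7A (chr6:45519225-45520721), had 0.40, 0.60 and 0.70 FPKM at 0 h, 2.99, 3.0 and 2.81 at 48 h and 3.26, 5.25 and 3.17 at 72 h. No control library reached an FPKM of 1, and every library with insulin was above 2. The changes were 1.33 at 48 h and 1.62 at 72 h, given as a description because the gene passed the filter on low values only through the libraries with insulin. Its common counterpart COX7A2 had a mean of 106 FPKM at 0 h and changes of 0.13 ± 0.08 and -0.09 ± 0.08 that did not pass. Per 100 FPKM of COX7A2, COX7A1 went from 0.540 ± 0.167 (SD, n = 3) to 2.53 ± 0.133 and 3.85 ± 0.830, so it remained the minor form.

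COX4I2, a form of subunit 4 known from lung, had 5.92, 5.96 and 4.88 FPKM at 0 h, 9.09, 9.0 and 5.95 at 48 h and 11.8, 11.2 and 14.1 at 72 h. Replicate 3 of 48 h was as low as the controls, and the 72 h libraries lay above all others. The rise at 48 h was 0.44 ± 0.14 (limma adjusted p = 0.0272), which was lost without 48 h replicate 1 (0.34), 48 h replicate 2 (0.35) or 0 h replicate 3 (0.36). At 72 h it was 1.02 ± 0.14 (limma adjusted p = 0.0002), and the 72 h level was higher than that at 48 h by 0.58 ± 0.14 (limma adjusted p = 0.0152), or by 0.49 without 72 h replicate 3 (limma adjusted p = 0.0575). Per 100 FPKM of COX4I1, COX4I2 was at 1.02 ± 0.102 (SD, n = 3), 1.2 ± 0.145 and 2.19 ± 0.559.

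COX6A2, the heart and skeletal muscle form of subunit 6A, had 7.44, 7.80 and 7.95 FPKM at 0 h, 11.8, 10.5 and 9.04 at 48 h and 10.5, 10.35 and 10.3 at 72 h, and rose by 0.38 ± 0.09 at each time (limma adjusted p = 0.00384 and 0.00377). COX6A1, the common form, rose by 0.32 ± 0.07 at 48 h, and its change at 72 h was 0.15 ± 0.07. The 7 muscle markers summed to 1448 to 1479 FPKM at 0 h, 882 to 961 at 48 h and 805 to 1010 at 72 h, nearly all of it the intermediate filament gene DES. DES and the embryonic myosin MYH3 fell at both times, by 0.70 and 0.71 on the log2 scale at 48 h. ACTC1, the cardiac actin, had means of 21.6, 19.6 and 14.1 FPKM and fell by 0.59 on the log2 scale at 72 h, with a change of -0.13 at 48 h that did not pass. MYOG, a muscle transcription factor, had 0.57, 0.29 and 0.50 FPKM at 0 h, 1.44, 1.23 and 1.18 at 48 h and a mean of 1.15 at 72 h, and it passed the filter only through the libraries with insulin. TNNT2 and TNNI1 had means below 1 FPKM at each time and CKM had at most 0.05 FPKM in any library. The part of these markers in the changes of COX7A1 and COX6A2 was not tested.

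NDUFA4L2 (chr5:22540482-22548418) is a paralog of NDUFA4, which carries a complex I name but is known in mammals as a subunit of complex IV, and it is known from other species as a gene induced by low oxygen. It had 2.28, 3.13 and 3.59 FPKM at 0 h, 7.85, 8.66 and 7.94 at 48 h and 9.61, 24.2 and 10.5 at 72 h. The groups with insulin did not overlap with 0 h, and replicate 2 of 72 h was far above the other libraries. The rises were 1.21 ± 0.27 and 1.88 ± 0.27 (limma adjusted p = 0.00383 and 0.00021), and both calls held in every setting run. NDUFA4 rose by 0.28 ± 0.10 at 48 h, or by 0.15 without 48 h replicate 1, where the call was lost as it was without any one 0 h library, and its change at 72 h was -0.08 ± 0.10. COX6B2, the testis form of subunit 6B, had 4.90, 3.05 and 3.53 FPKM at 0 h and 6.90, 6.27 and 5.32 at 48 h. At 72 h it had 0.58, 4.45 and 0 FPKM, and the change of -1.22 ± 0.47 against 0 h did not pass (limma adjusted p = 0.0537). Replicate 2 of 72 h lay within the range of the controls and the other 72 h libraries below them. Without it COX6B2 was called lower at 72 h, with a change of -1.92 (limma adjusted p = 6.34e-05), and the fits that left out a library gave -1.92 to -0.70. It was also called lower with equal FPKM sums (-1.27), the replicate block (-1.22) and library weights (-1.42). From 48 h to 72 h COX6B2 fell by 1.80 on the log2 scale (limma adjusted p = 0.019), a call lost with no filter and without 48 h replicate 1 (-1.73), 48 h replicate 2 (-1.79), 72 h replicate 1 (-1.61) or 72 h replicate 3 (-1.28).

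**Figure D4:**
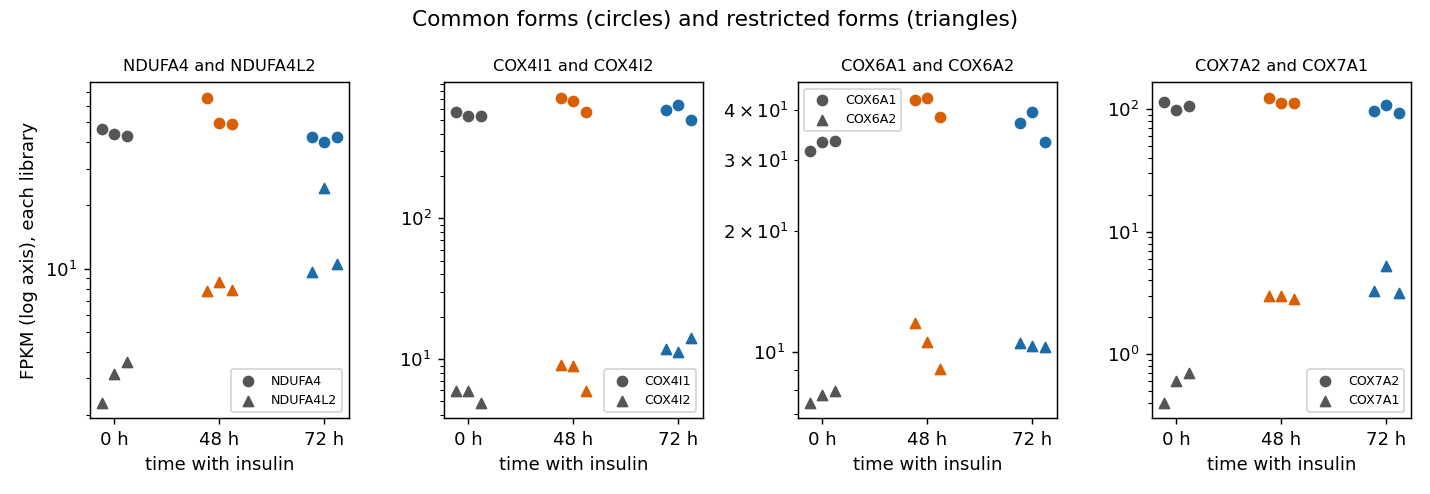
Each panel shows the FPKM of a common form (circles) and a restricted form (triangles) in each library on a logarithmic axis, by time. COX7A1 is below 1 FPKM at 0 h and above 2 in every library with insulin, COX4I2 is highest at 72 h, and NDUFA4L2 in 72 h replicate 2, at 24.2 FPKM, stands above the other libraries.

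The 13 mitochondrial genes are transcribed as long precursors and cut into messengers, so their levels depend on both steps. At 48 h, 5 rose (ND1, ND3, ND4, COX3 and ATP8) and ND4L fell, 38.5% and 7.69% against 27.6% and 22.4% of all tested genes, with a median of 0.21. At 72 h none rose, against 23.0% of all tested genes. The 4 that fell were ND4, ND4L, ND5 and CYTB, 30.8% against 22.5%, and the median of the 13 was -0.11. From 48 h to 72 h, in a comparison that shares the 48 h libraries with the rises, 6 fell (ND1, ND3, ND4, ND6, CYTB and COX3), 46.2% against 16.3%. In the same comparison none was called higher, against 9.17% of all tested genes. The count of falls was 3 without 72 h replicate 1 or 2 and 8 without 72 h replicate 3. It was 4 with equal FPKM sums and 2 with no filter on low values. The shares of all tested genes called lower there were 11.3%, 15.3%, 11.2%, 10.2% and 7.08%. The number that fell at 72 h was 7 without 72 h replicate 3, and 1 or 2 without any one of the other 5 libraries of 0 h and 72 h. Of all tested genes, 21.1% and 17.9% to 19.4% were called lower in these fits. All 13 encode core subunits, 7 of complex I, CYTB of complex III, 3 of complex IV, and ATP6 and ATP8 of complex V.

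Together they held 7.30%, 7.23% and 7.47% of the FPKM sum in the 0 h libraries, 7.67%, 7.05% and 7.44% at 48 h and 6.46%, 6.13% and 7.33% at 72 h. The groups overlapped, and 72 h replicate 3 lay with the controls while replicates 1 and 2 were lower. Per FPKM of the nuclear members, the mitochondrial sum was 7.31, 7.40 and 7.51 at 0 h, 6.56, 6.19 and 7.06 at 48 h and 6.38, 5.80 and 7.65 at 72 h. All 48 h libraries were below the controls in this ratio, and at 72 h replicate 3 was above them. With equal FPKM sums 2 mitochondrial genes were called higher and 2 lower at 48 h, in place of 5 and 1. Of all tested genes, 17.7% were called higher and 33.4% lower in that setting.

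COX3, a core subunit of complex IV, had 5622, 5255 and 5444 FPKM at 0 h, 8083, 6762 and 6625 at 48 h and 5451, 5266 and 5747 at 72 h. The 48 h libraries lay above all others. It rose by 0.39 ± 0.08 at 48 h (limma adjusted p = 0.0028), a call that held in every setting run, and it fell by 0.38 ± 0.08 on the log2 scale from 48 h to 72 h (limma adjusted p = 0.00793). COX1 had 5470, 5396 and 5521 FPKM at 0 h and 5670, 5878 and 6414 at 72 h, above the controls, but its change of 0.13 ± 0.06 did not pass (limma adjusted p = 0.12). COX2, which takes electrons from cytochrome c, had changes of 0.18 ± 0.09 and -0.02 ± 0.09.

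Within mitochondrial RNA, the genes did not all keep the same share. COX3 made up 14.6% to 15.5% of the mitochondrial FPKM at 0 h, 17.0% to 18.7% at 48 h and 15.5% to 16.5% at 72 h. COX1 made up 14.8% to 15.3%, 14.5% to 15.4% and 17.2% to 18.2%, so its share was apart from the controls at 72 h and not at 48 h. CYTB, which passes electrons within complex III, made up 7.21% to 7.25%, 6.41% to 6.66% and 6.44% to 6.64%, lower in all 6 libraries with insulin. With 3 libraries against 3, an exact permutation test of a share cannot go below a two-sided p of 0.1, so groups that lie apart are given as a description.

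ND4L, a membrane subunit of complex I (MT:11069-11365), had 5016, 5002 and 5476 FPKM at 0 h, 4124, 4060 and 4946 at 48 h and 3878, 3444 and 4021 at 72 h. Both groups with insulin lay below all controls, 48 h replicate 3 nearest to them. It had a change of -0.24 ± 0.09 at 48 h (limma adjusted p = 0.0437), lost without any one library of 0 h (-0.27 to -0.20), 48 h replicate 1 (-0.20), 48 h replicate 2 (-0.19) or 72 h replicate 1 (-0.24). At 72 h it fell by 0.45 ± 0.09 on the log2 scale (limma adjusted p = 0.00201), a call that held when any 1 library was left out and under every scaling. ND4, its neighbour in the same messenger (MT:11359-12736, with 7 bases shared), had 1652, 1567 and 1635 FPKM at 0 h, 2072, 1821 and 1851 at 48 h and 1350, 1346 and 1520 at 72 h. ND4 rose by 0.24 ± 0.07 at 48 h (limma adjusted p = 0.0165) and fell by 0.21 ± 0.07 on the log2 scale at 72 h (limma adjusted p = 0.0354). Under quantile normalization its change at 48 h was -0.09, and the call at 48 h was lost without 0 h replicate 2 (0.22), that at 72 h without any one 0 h library, 72 h replicate 1 (-0.18) or 72 h replicate 2 (-0.18). Per 100 FPKM of ND4, ND4L was at 304, 319 and 335 at 0 h, 199, 223 and 267 at 48 h and 287, 256 and 265 at 72 h, below all controls in the 6 libraries with insulin.

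ATP8 (MT:8959-9162) also shares a messenger with its neighbour ATP6 (MT:9120-9800), with 43 of its 204 bases in the overlap. ATP8 had 25.05, 24.3 and 13.95 FPKM at 0 h, 51.9, 79.95 and 24.1 at 48 h and 38.85, 34.9 and 45.6 at 72 h, while ATP6 had means of 4498 FPKM at 0 h and changes of 0.21 ± 0.09 and -0.05 ± 0.09 that did not pass. Replicate 3 of 48 h lay with the controls for ATP8. Its rise of 1.15 ± 0.35 at 48 h (limma adjusted p = 0.0195) was lost without 0 h replicate 3 (0.89), 48 h replicate 1 (1.07) or 48 h replicate 2 (0.77), and the change at 72 h of 0.92 ± 0.35 did not pass (limma adjusted p = 0.0528). All 72 h values of ATP8 were above the controls, and it was called higher at 72 h with a mean FPKM of at least 5, with the replicate block, with library weights and without 48 h replicate 2 or 3 (limma adjusted p of 0.00659 to 0.0492). How fragments in overlapping genes were counted, and whether strand was used, is not stated, so the levels of ATP8, ND4L and the opposed pair ND5 and ND6 are uncertain.

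Among the other complex I genes of mitochondrial DNA, ND3 had 1965, 1996 and 2045 FPKM at 0 h and 2886, 2369 and 2247 at 48 h, a rise of 0.31 ± 0.09 (limma adjusted p = 0.0142) that was not called with equal FPKM sums (0.18) or with no filter. ND1, next to the quinone site, rose by 0.25 ± 0.07 at 48 h, a call lost with equal FPKM sums (0.11) and quantile normalization (0.05), and its change at 72 h was -0.11 ± 0.07. ND2 had changes of 0.04 ± 0.08 and -0.17 ± 0.08, and ND6, the only one of the 13 on the other strand, of 0.23 ± 0.11 and -0.15 ± 0.11, none of which passed. ND5 had a change of -0.17 ± 0.08 at 48 h that did not pass and fell by 0.25 ± 0.08 on the log2 scale at 72 h (limma adjusted p = 0.027). CYTB was at 0.00 ± 0.07 at 48 h and fell by 0.24 ± 0.07 on the log2 scale at 72 h (limma adjusted p = 0.019), or had a change of -0.07 under quantile normalization, which was not called. The calls of ND5 and CYTB at 72 h were lost in 5 and 4 of the 9 fits that left out a library, with changes of -0.27 to -0.19 and -0.23 to -0.20 there.

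**Figure D5:**
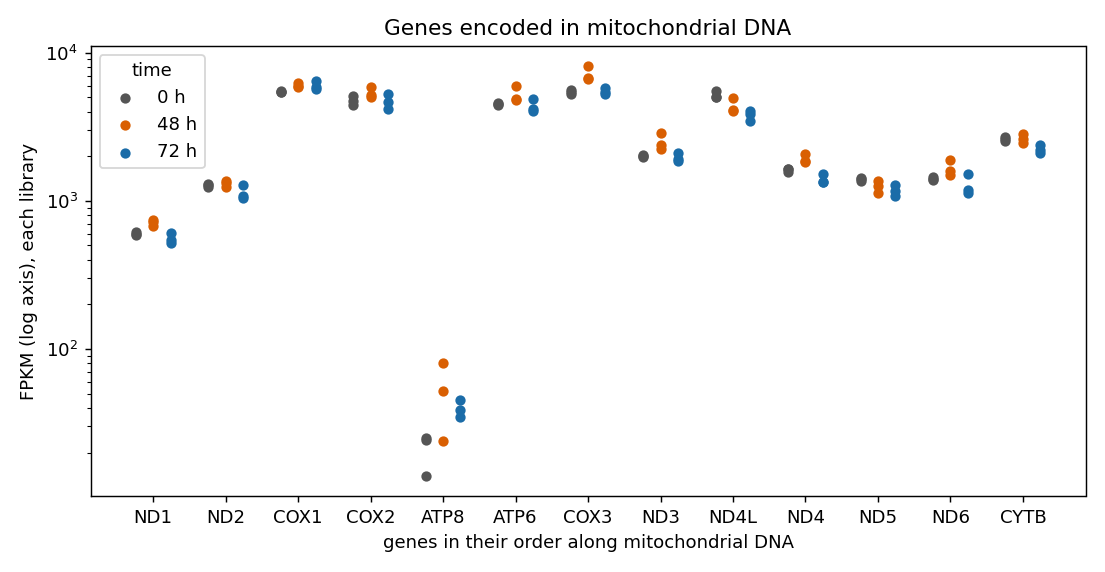
The vertical axis is FPKM on a logarithmic scale and the horizontal axis the 13 genes in their order along mitochondrial DNA, with a point for each library coloured by time. All genes but ATP8 lie between 520 and 8083 FPKM, ATP8 lies below 100, and ND4L is lower in the libraries with insulin while COX3 is higher at 48 h.

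Among genes that build the chain, counts are read against 27.6% of all tested genes called higher and 22.4% lower at 48 h, and 23.0% and 22.5% at 72 h. Of 17 tested assembly factors of complex I, 7 rose and 2 fell at 48 h, and 3 rose and 2 fell at 72 h. NDUFAF8 went from a mean of 39.1 to 103 and 79.6 FPKM, rises of 1.38 and 0.97, and NDUFAF3 rose by 0.94 and 0.72, while NDUFAF5 fell by 0.32 and 0.56 on the log2 scale. Of 8 such factors of complex III, 3 rose and 2 fell at 48 h, and 1 rose and 3 fell at 72 h. TTC19, which clears fragments of the Rieske protein, went from 6.41 to 3.35 and 1.96 FPKM, falling by 0.77 and 1.36 on the log2 scale, and UQCC3 rose by 0.58 and 0.46. Of 18 complex IV factors, 3 rose at 48 h (HIGD2A, COX17 and SURF1, the highest HIGD2A at 0.59) and COA7 fell at 72 h (-0.31). The ATP synthase inhibitor ATP5IF1 rose from 270 to 353 FPKM at 48 h (0.38) and had a change of 0.19 at 72 h. SDHAF2, the flavin factor of complex II and the only tested gene of its list, rose by 0.56 at 48 h. In the list of complex V assembly genes and inhibitor, 3 of 5 rose and ATPAF1 fell (-0.36) at 48 h, and DMAC2L rose at 72 h (0.40).

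The 13 tested genes that copy and transcribe mitochondrial DNA had 1 rise and 2 falls at 48 h and 1 rise and 4 falls at 72 h, against 27.6% of all tested genes called higher and 22.4% lower at 48 h, and 23.0% and 22.5% at 72 h. TOP1MT, the mitochondrial topoisomerase, rose by 0.31 and 0.21. MGME1, a nuclease of mitochondrial DNA, fell by 0.62 and 0.84 on the log2 scale and PRIMPOL, a primase, by 0.67 and 0.78. TFAM, which packages and transcribes mitochondrial DNA, had changes of -0.12 ± 0.08 at both times that did not pass. Of 16 genes that process and stabilise mitochondrial RNA, 4 rose and 2 fell at 48 h, and 1 rose and 4 fell at 72 h. SLIRP rose from 73.8 to 121 and 107 FPKM (0.70 and 0.51), while its partner LRPPRC fell by 0.20 and 0.22 on the log2 scale.

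Of 10 tested regulators of respiratory genes, 1 rose and 3 fell at 48 h, and 1 rose and 2 fell at 72 h, against 27.6% of all tested genes called higher and 22.4% lower at 48 h, and 23.0% and 22.5% at 72 h. TFE3, a transcription factor of lysosomal genes, rose by 0.42 and 0.27. NRF1, which binds many nuclear promoters of this set, went from 8.54 to 6.12 and 5.93 FPKM and fell by 0.42 ± 0.08 and 0.46 ± 0.08 on the log2 scale (limma adjusted p = 0.00173 and 0.000844). GABPA, which encodes a subunit of another such factor, fell by 0.31 and 0.27. PPARGC1A, a coactivator of mitochondrial gene expression, had a mean of 0.0467 FPKM at 0 h and was not tested. Coenzyme Q and heme genes had 2 rises and 2 falls among 13 at 48 h and 1 and 5 at 72 h, with PDSS1, which makes the tail of coenzyme Q, at -0.80 at 72 h and HCCS, which attaches heme to cytochrome c, at -0.33 and -0.51. COQ4, which is needed to make coenzyme Q, rose by 0.34 and 0.27.

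Carriers had 4 rises and 1 fall among 9 at 48 h and 2 and 1 at 72 h, against 27.6% of all tested genes called higher and 22.4% lower at 48 h, and 23.0% and 22.5% at 72 h. SLC25A3, the phosphate carrier, rose by 0.39 and 0.24 and VDAC3, an outer membrane channel, by 0.39 and 0.33. The uncoupling protein UCP2 had a change of -0.53 at 72 h from a mean of 0.943 FPKM at 0 h. UCP2 passed the filter on low values only through libraries of 0 h and 48 h. Its call, which the count includes, is therefore no support for a difference. Other enzymes that feed electrons to ubiquinone had 3 rises and 2 falls among 7 at 48 h and 2 of each at 72 h. SQOR, which oxidises sulfide, rose by 0.46 and 0.58 and ETFB by 0.48 and 0.33, while ETFDH, the partner enzyme that passes these electrons on, fell by 0.20 and 0.54 and DHODH of pyrimidine synthesis by 0.27 and 0.42 on the log2 scale.

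Across the 66 genes, Spearman's rho between the log2 change and the 0 h level was -0.37 at 48 h and -0.31 at 72 h, as a description across genes that share libraries and in which the 0 h level enters both measures. Some short nuclear messengers of this set, CYCS among them, have near-identical processed pseudogenes, and the deposited values do not show how shared fragments were divided.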

How the data were processed

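FPKM values, 1 per gene and library with 2 decimals, were made and deposited by the authors, per the file headers. The build Sscrofa11.1 and the tools DESeq2 (no version), RSEM 1.2.28, featureCounts 2.0.2 and HISAT2 2.1.0 are listed in the submitters' processing notes, with no role or order. Ribosomal RNA was removed, per the labels' protocols. FPKM hold no depth, so no counting interval was computed, and the spread between libraries (median SE 0.088 at 48 h) sets the precision. FPKM + 1 was taken on the log2 scale, which understates changes of low genes. Group was the single term of a limma 3.58.1 fit (R 4.3.3) over all 9 libraries, with a variance trend and two-sided tests. On simulated data it recovered 13.2% of log2 changes of 0.25, 68.2% of 0.5 and 89.4% of 1. The simulation changed 68, 66 and 66 of 11063 genes, far fewer than were called here, so these rates need not hold for the real data. Members and lists were chosen with earlier results of these data known, so no list has a p. Named by rule were the mitochondrial genes, the 2 highest and 2 lowest members of each complex at each time, and tissue forms. In the further lists not all called genes are named, and a called gene left out can have a larger change than one named. Other members named were chosen after their values were seen. Coordinates are those of RefSeq on Sscrofa11.1, matched by symbol. Other scalings, filters, pseudocounts, weights, a replicate block and leaving out each library were tried. Values of some genes are counted but not reported here.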

Additional observations from a re-analysis of the deposited data

How the results depend on the processing

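With equal FPKM sums, quantile normalization and equal sums without mitochondrial genes, the nuclear members called higher at 48 h were 30, 32 and 30 and those called lower 4, 4 and 4, and the nuclear median was 0.16 with either kind of equal sums. Of all tested genes, 17.7%, 24.1% and 17.7% were called higher and 33.4%, 24.8% and 33.1% lower. Over all tested genes, 3048 were called higher and 2476 lower at 48 h as deposited, and 1959 and 3691 with equal FPKM sums. At 72 h, 8, 9 and 9 nuclear members were called lower under these scalings, 3 with median ratio scaling and 3 without a variance trend. The shares of all tested genes called lower were 26.5%, 22.5%, 27.3%, 21.8% and 22.5%. From 48 h to 72 h, 17 nuclear members fell with equal sums (25.8%), 13 with no filter on low values (19.7%) and 51 with library weights (77.3%). Of all tested genes, 10.2%, 7.08% and 30.3% were called lower in these settings. Library weights also gave 2 nuclear members lower at 48 h, against 34.6% of all tested genes. COX4I2 was not called in that comparison with no filter, which left 0 higher.

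Mitochondrial members had a median of 0.07 with equal sums and 0.05 with quantile normalization at 48 h. Called higher at 48 h were 2 with equal sums, 2 with no filter and 9 with library weights, and called lower were 2, 0 and 3, with 2 under quantile normalization and 0 without a trend. Of all tested genes, 17.7%, 14.4% and 38.2% were called higher and 33.4%, 12% and 34.6% lower. Under quantile normalization and without a trend, 24.8% and 22.5% were lower. At 72 h, 1 was called higher with library weights and with a mean FPKM of at least 5 (ATP8) and with quantile normalization (COX2), and 1 was called lower with no filter. The shares of all tested genes were 26.8%, 24.9% and 23.6% higher, and 12.2% lower with no filter. From 48 h to 72 h, 10 fell with library weights and 2 with no filter, against 30.3% and 7.08% of all tested genes. ND4 at 48 h changed direction under quantile normalization (-0.09, not called). The cause was not tested.

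When 1 library was left out, the nuclear members called ranged at 48 h from 37 to 56 higher and 0 to 1 lower, at 72 h from 10 to 21 and 1 to 5, and from 48 h to 72 h from 0 to 2 and 12 to 42. Mitochondrial members ranged from 4 to 6 higher and 0 to 2 lower at 48 h, from 0 to 1 and 1 to 7 at 72 h, and fell in 3 to 8 cases from 48 h to 72 h. In these fits 22.6% to 27.9% of all tested genes were called higher at 48 h and 17.5% to 24.3% lower. At 72 h the shares were 19.1% to 24.6% and 17.9% to 24.5%. From 48 h to 72 h they were 5.32% to 13.5% and 10.3% to 19.8%. Pseudocounts of 0.1 and 0.5 moved no count of members called by over 1.5 times.

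The replicate numbers were tried as a block. The correlation of deviations between libraries of the same number was -0.07 to 0.19, so the numbers were not taken to pair the samples. With the replicate block 52 nuclear members were called higher at 48 h, 18 higher and 5 lower at 72 h, and 31 fell from 48 h to 72 h. The shares of all tested genes were 27.8%, 23.5%, 23% and 17.5%. The mitochondrial members called higher at 72 h were then 1, ATP8, in place of 0.

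FPKM hold no depth, so low members such as COX7A1 and COX6B2 have no counting error of their own, and with 3 libraries a group small changes can miss the threshold.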
